A study of Homo sapiens with 10 samples.

Results

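The genes described here lie on the long arm of human chromosome 17, in bands q21 to q25, and are other than keratins. They were given as a list of 60 names, and each was represented by its probe set with the highest mean over all arrays. Of the 60, 42 were measured, among 14884 genes in all, and 18 were not analysed here. The genes were chosen by their place on this arm after the same knockout and parental log2 signals had shown higher values along it, so the differences between knockout and parental cells are given as descriptions of the chosen genes, without a test of their own.

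The arrays came from MCF10A, a non-malignant epithelial line from human breast that grows without limit. The groups were H2A.X-KO, in which the gene of the histone variant H2A.X was knocked out (5 arrays), and WT, the parental cells (5 arrays). Both were grown for 48 hours in the same medium with horse serum, hydrocortisone, EGF, cholera toxin and insulin. The labels do not give the number of knockout clones, or whether the arrays of a group came from separate cultures, so the spread between arrays may be technical. On the second principal component of all genes, knockout replicate 1 lay at 20.2 and the remaining 4 knockout arrays between -9.47 and -2.52. The study's title concerns the roles of Twist1 and Slug in an epithelial-mesenchymal transition governed by H2A.X.

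Chromosome 17q is a gene-dense arm, parts of which are often gained in breast tumours. Genes of a chromosome arm share no pathway. This stretch encodes signal transducers such as STAT3, splicing and ribosome biogenesis factors, Golgi SNAREs, parts of the ubiquitin and nuclear transport machinery, and enzymes of general metabolism. Values below are log2 signals of a probe set, on which a difference of 1 is a 2-fold change, and differences are knockout minus parental. A probe set's level is not compared with that of another gene, because probe sets differ in brightness for the same amount of RNA.

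Most of the 42 genes were higher in knockout cells, by amounts that varied from gene to gene. Their median difference was 0.31 (a 1.24-fold higher signal), and 34 of 42 differences were above 0. Over all genes the median was 0.00 and 50.0% were above 0. NPEPPS, HELZ, TNS4, UTP18, SUMO2, EFTUD2 and MSI2 were each higher by more than 0.9, while EIF1 and GOSR2 were lower by more than 0.3. In the limma fit over all genes, 27 of the 42 were called higher at an adjusted p under 0.05, where 15.3% of all genes were, and 2 were called lower, where 19.0% of all genes were. All 5 knockout arrays lay above all 5 parental arrays in 26 of the 42, against 12.2% of all genes, and below them in 2, against 16.0% of all genes. Of the 42, 40 were brighter than the middle of all gene means. Of all 7442 such genes, 24.1% were called higher and 31.5% lower. In 1555 of these the knockout arrays lay above all parental arrays, and in 2084 below. The same contrast led to the choice of these genes, so nothing is read from these counts. Without knockout replicate 1, 27 were called higher and the median was 0.33.

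**Figure D1:**
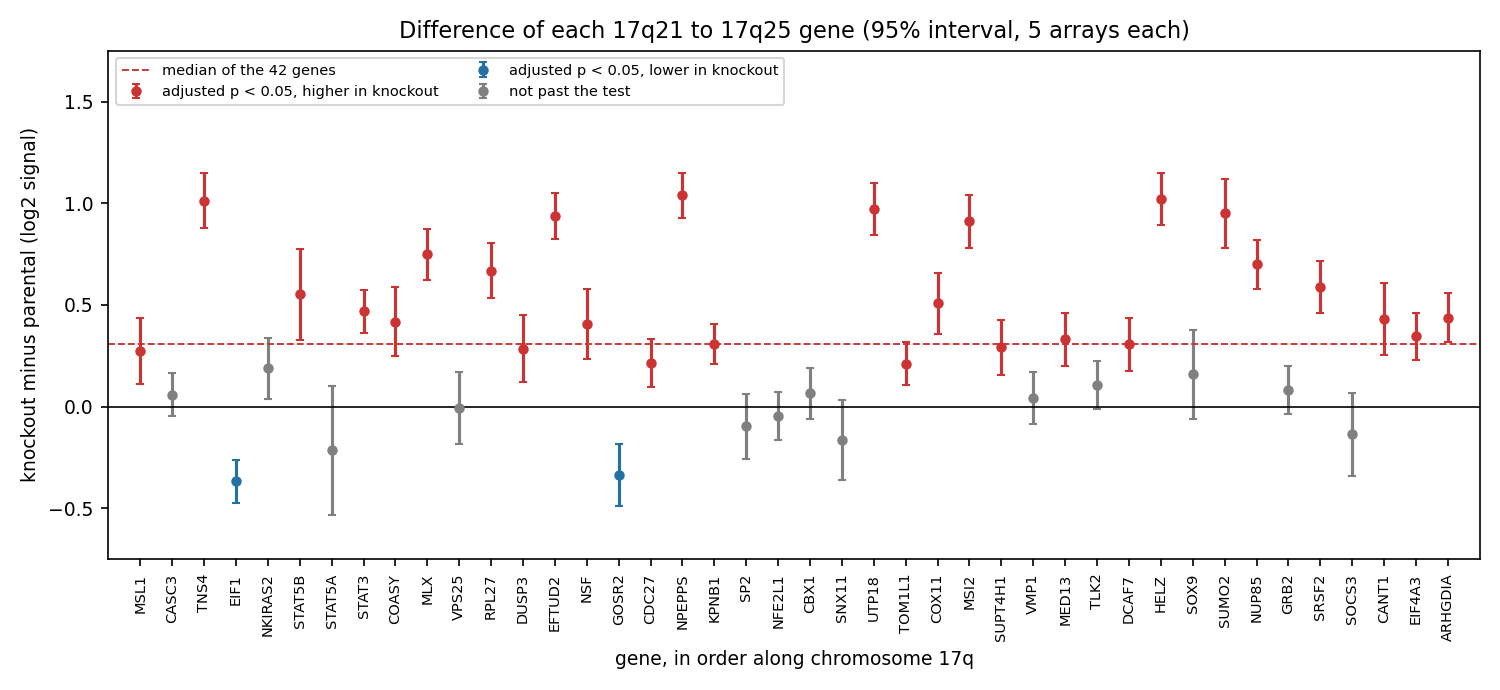
Knockout minus parental difference (log2 signal, y axis) of each of the 42 genes in their order along 17q (x axis), with 95% intervals from limma over 5 arrays a group. Points scatter between -0.37 (EIF1) and 1.04 (NPEPPS) around the dashed median of 0.31, and high and low genes alternate along the arm.

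The sequences before the transcription start are shown for 5 of these genes that span the range of differences, UTP18 and SUMO2 near the top, MLX and STAT3 between, and EIF1 at the bottom. Each run is the 250 bases upstream of the start, 5′ to 3′ on the gene's strand, taken from RefSeq on GRCh38.p14: UTP18 at chr17:51260296-51260545, plus strand; SUMO2 at chr17:75182960-75183209, minus strand; MLX at chr17:42566850-42567099, plus strand; STAT3 at chr17:42388443-42388692, minus strand; EIF1 at chr17:41688635-41688884, plus strand. Capitals mark matches, on either strand, to CACGTG (the E-box, bound by dimers of MLX), TTCNNNGAA (bound by STAT factors), GGGCGG (the GC box of SP factors), TGACNNNGC (an element bound by NFE2L1), CCAAT or TATAAA.
UTP18: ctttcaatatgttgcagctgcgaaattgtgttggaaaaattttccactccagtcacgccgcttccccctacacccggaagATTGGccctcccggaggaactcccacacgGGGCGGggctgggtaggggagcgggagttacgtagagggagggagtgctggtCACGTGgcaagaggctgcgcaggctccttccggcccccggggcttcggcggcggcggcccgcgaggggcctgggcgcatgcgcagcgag
SUMO2: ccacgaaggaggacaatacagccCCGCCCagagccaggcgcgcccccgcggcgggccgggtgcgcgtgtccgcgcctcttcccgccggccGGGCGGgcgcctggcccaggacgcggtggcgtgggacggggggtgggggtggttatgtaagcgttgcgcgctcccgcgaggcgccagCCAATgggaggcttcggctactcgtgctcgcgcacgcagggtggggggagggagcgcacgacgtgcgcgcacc
MLX: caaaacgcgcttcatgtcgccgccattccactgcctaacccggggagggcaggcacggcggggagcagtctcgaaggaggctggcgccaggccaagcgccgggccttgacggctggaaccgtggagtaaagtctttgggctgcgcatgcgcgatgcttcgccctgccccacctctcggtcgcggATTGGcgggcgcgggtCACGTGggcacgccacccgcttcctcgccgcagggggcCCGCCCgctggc
STAT3: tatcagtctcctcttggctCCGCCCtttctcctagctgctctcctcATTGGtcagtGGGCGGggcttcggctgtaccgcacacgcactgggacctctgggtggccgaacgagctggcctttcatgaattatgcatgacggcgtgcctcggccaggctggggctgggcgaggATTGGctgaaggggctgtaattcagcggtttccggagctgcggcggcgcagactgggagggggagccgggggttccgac
EIF1: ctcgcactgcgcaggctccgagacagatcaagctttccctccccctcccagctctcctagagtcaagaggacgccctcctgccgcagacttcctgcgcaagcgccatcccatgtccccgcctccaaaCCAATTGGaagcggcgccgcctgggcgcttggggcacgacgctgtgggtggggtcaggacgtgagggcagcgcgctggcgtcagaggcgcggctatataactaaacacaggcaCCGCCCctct
All 5 runs hold a GC box and are rich in G and C, at 64.4% (STAT3) to 76.4% (SUMO2). UTP18 and MLX each hold a CACGTG, which in MLX begins 50 bases before its own start.

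Windows of this kind were found for 34 of the 42 genes, taking the outermost start listed for each gene. They were read beside the 27305 such windows of all genes in the table, which include genes not measured here. Of the 42, 40 had a mean above 5.49, the middle of all gene means. Windows of other such genes were not set beside them, so no share is read as a trait of this arm. GGGCGG was in 22 of the 34 (64.7%) and in 42.2% of all windows. CCAAT was in 12 (35.3%) and in 33.0% of all. CACGTG was in 5, namely MLX, EFTUD2, GOSR2, UTP18 and EIF4A3 (14.7%), and in 6.46% of all. TTCNNNGAA was in DUSP3 and GOSR2 (5.88%) and in 6.76% of all, TGACNNNGC was in SP2 and ARHGDIA (5.88%) and in 11.1% of all, and TATAAA was in 0 of 34 and in 11.2% of all. CACGTG stood before both UTP18 (0.97) and GOSR2 (-0.34), and GGGCGG before both SUMO2 (0.95) and EIF1 (-0.37).

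Genes of RNA processing and translation held many of the largest differences. Of 9, 7 were called higher, 1 lower and 1 did not pass, with a median of 0.67. Among all bright genes 24.1% were called higher and 31.5% lower. The genes were chosen by this contrast and the roles were set with results known. The counts of this and the following roles are therefore descriptions, and differences between roles were not tested. HELZ, which encodes an RNA helicase with a zinc finger, had 10.28, 10.19, 10.07, 10.13 and 10.19 in knockout arrays 1 to 5, against 9.05, 9.13, 9.18, 9.25 and 9.15 in parental arrays 1 to 5. UTP18, a factor of the small-subunit processome that matures ribosomal RNA, had 7.71, 7.74, 7.75, 7.91 and 7.74 in knockout arrays 1 to 5, against 6.79, 6.88, 6.70, 6.76 and 6.86 in parental arrays 1 to 5. In both genes the lowest knockout array stood well above the highest parental array, with differences of 1.02 ± 0.06 and 0.97 ± 0.06 (SE, n = 5 each).

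EFTUD2, the GTPase of the U5 small nuclear ribonucleoprotein, and MSI2, an RNA-binding regulator of translation, were higher by 0.94 ± 0.05 and 0.91 ± 0.06. RPL27, a protein of the large ribosomal subunit, had 11.39, 11.25, 11.26, 11.31 and 11.20 in knockout arrays 1 to 5, against 10.72, 10.59, 10.66, 10.64 and 10.47 in parental arrays 1 to 5, a difference of 0.67 ± 0.06 with no overlap between groups. The serine and arginine rich splicing factor gene SRSF2 had 9.54, 9.56, 9.54, 9.37 and 9.42 in knockout arrays 1 to 5, against 8.79, 8.95, 8.93, 8.87 and 8.95 in parental arrays 1 to 5. Its groups did not overlap either, with a difference of 0.59 ± 0.06.

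The exon junction complex, which is left on spliced messages, gave unlike values for the pair of its core genes on this arm. EIF4A3, its helicase, had 8.93, 8.88, 8.96, 8.96 and 8.98 in knockout arrays 1 to 5, against 8.60, 8.66, 8.63, 8.48 and 8.60 in parental arrays 1 to 5, so that every knockout array was higher, by 0.35 ± 0.05 on average. CASC3, another core member, was at 9.56 ± 0.05 in knockout and 9.50 ± 0.03 in parental cells (SD, n = 5 each) and did not pass. EIF1, which guards the choice of the start codon, had 10.30, 10.35, 10.30, 10.25 and 10.30 in knockout arrays 1 to 5, against 10.74, 10.64, 10.63, 10.68 and 10.64 in parental arrays 1 to 5. All knockout arrays were below all parental arrays, and its difference of -0.37 ± 0.05 was the lowest of the 42.

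The 6 genes of protein modification, turnover and nuclear transport were all called higher, with a median of 0.50. NPEPPS, the puromycin-sensitive aminopeptidase, had 7.43, 7.40, 7.36, 7.45 and 7.54 in knockout arrays 1 to 5, against 6.41, 6.42, 6.37, 6.42 and 6.37 in parental arrays 1 to 5. The arrays of a group lay close together and the groups were far apart, with the largest difference of the 42, 1.04 ± 0.05. SUMO2, a small protein attached to others like ubiquitin, had 10.07, 10.00, 9.96, 9.89 and 9.64 in knockout arrays 1 to 5, against 8.97, 8.93, 8.95, 9.06 and 8.90 in parental arrays 1 to 5. Its knockout arrays spread more than its parental arrays, but none overlapped, and the difference was 0.95 ± 0.08. NUP85, a scaffold protein of the nuclear pore, was higher by 0.70 ± 0.06, KPNB1, the import receptor importin beta 1, by 0.31 ± 0.05, the WD repeat scaffold gene DCAF7 by 0.31 ± 0.06, and CDC27, a subunit of the anaphase promoting complex, by 0.21 ± 0.05. A further probe set of CDC27, much dimmer, gave 0.07. SUMO2, RPL27, CBX1, CDC27, NSF and NPEPPS have pseudogenes or close copies elsewhere, and how far their probe sets tell these apart was not tested.

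Signalling and adhesion genes were split, with 5 of 9 called higher, 0 lower and 4 not passing (median 0.28). TNS4, a tensin that sits at focal adhesions, had 10.76, 10.95, 10.93, 10.94 and 11.00 in knockout arrays 1 to 5, against 9.90, 9.79, 10.00, 9.93 and 9.88 in parental arrays 1 to 5. Knockout arrays were about 1 unit above parental arrays throughout, a difference of 1.01 ± 0.06. The STAT genes lie side by side and carry cytokine and growth factor signals to the nucleus. STAT3 had 10.24, 10.27, 10.25, 10.28 and 10.21 in knockout arrays 1 to 5, against 9.71, 9.81, 9.82, 9.79 and 9.77 in parental arrays 1 to 5. Its arrays differed little within a group, and every knockout array was higher, by 0.47 ± 0.05 on average.

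STAT5B had 6.21, 6.41, 6.03, 6.32 and 6.16 in knockout arrays 1 to 5, against 5.34, 5.58, 5.81, 5.82 and 5.82 in parental arrays 1 to 5. The groups did not overlap, with a difference of 0.55 ± 0.10. STAT5A, its close paralogue and neighbour, had 5.19, 4.64, 4.74, 4.80 and 4.61 in knockout arrays 1 to 5, against 5.04, 5.35, 5.19, 4.53 and 4.95 in parental arrays 1 to 5. These arrays overlapped, the difference was -0.22 ± 0.15, and the gene was dim, with a mean below 5.49, the middle of all gene means, where differences are compressed. The coding sequences of STAT5A and STAT5B are much alike, and how far their probe sets tell them apart was not tested.

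SOCS3, an inhibitor of STAT signalling whose own transcription STAT3 is known to raise, had 5.50, 5.02, 5.09, 5.06 and 5.04 in knockout arrays 1 to 5, against 5.37, 5.16, 5.24, 5.42 and 5.20 in parental arrays 1 to 5. It was dim as well, the groups overlapped, and knockout array 1 was far above the other knockout arrays. The difference was -0.14 ± 0.09, which did not pass, and without knockout replicate 1 it was -0.23 and passed. A dimmer probe set of SOCS3 gave 0.12, and the mean of both gave -0.01, so no direction can be given for SOCS3.

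Of the other signalling genes, ARHGDIA had 9.66, 9.67, 9.88, 9.74 and 9.74 in knockout arrays 1 to 5, against 9.24, 9.32, 9.31, 9.30 and 9.34 in parental arrays 1 to 5, with no overlap and a difference of 0.44 ± 0.06. The phosphatase gene DUSP3 was higher by 0.28 ± 0.08, with overlapping arrays. NKIRAS2, a Ras-like restrainer of NF-kB, was at 0.19 ± 0.07 and did not pass, though its knockout arrays lay above all parental arrays. It passed without parental replicate 1 (0.22) or parental replicate 2 (0.22). The adaptor gene GRB2, which links growth factor receptors to Ras, was at 0.08 ± 0.05 and did not pass.

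Transcription and chromatin genes showed smaller differences, with 4 of 9 called higher, 0 lower and 5 not passing (median 0.16). MLX, the partner of the glucose-sensing MondoA and ChREBP factors, was higher by 0.75 ± 0.06, at 9.90 ± 0.07 in knockout and 9.15 ± 0.07 in parental cells (SD, n = 5 each). MED13, of the Mediator kinase module, was higher by 0.33 ± 0.06, the elongation factor gene SUPT4H1 by 0.29 ± 0.06, and MSL1, a scaffold of a histone H4 acetyltransferase complex, by 0.27 ± 0.08, with overlapping arrays in MSL1. SOX9, a transcription factor of progenitor cells in the mammary gland, had 6.87, 6.56, 6.46, 6.85 and 6.84 in knockout arrays 1 to 5, against 6.52, 6.66, 6.66, 6.29 and 6.65 in parental arrays 1 to 5. Its groups overlapped, with the lowest array of all among the parental ones, and the difference of 0.16 ± 0.10 did not pass. The chromatin kinase gene TLK2 (0.11), the heterochromatin protein gene CBX1 (0.07), NFE2L1 (-0.05), which encodes a factor that drives proteasome genes, and SP2 (-0.10) did not pass.

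Membrane traffic and autophagy genes had the lowest median of the roles, with 2 of 6 called higher, 1 lower and 3 not passing (median 0.02). NSF, the ATPase that recycles SNARE proteins, was higher by 0.41 ± 0.08, and TOM1L1, an endosomal sorting adaptor, by 0.21 ± 0.05. GOSR2, a SNARE of the Golgi, had 7.06, 7.27, 7.33, 7.37 and 7.29 in knockout arrays 1 to 5, against 7.49, 7.55, 7.72, 7.66 and 7.56 in parental arrays 1 to 5. All knockout arrays were below all parental arrays, and the difference was -0.34 ± 0.07. SNX11, a sorting nexin, had 6.28, 6.64, 6.64, 6.78 and 6.36 in knockout arrays 1 to 5, against 6.59, 6.76, 6.74, 6.76 and 6.68 in parental arrays 1 to 5, so that the groups overlapped, and its difference of -0.16 ± 0.09 did not pass. VMP1, an autophagosome protein of the endoplasmic reticulum (0.04), and VPS25, of the ESCRT-II sorting complex (-0.01), did not pass. The 3 metabolic genes were all higher: COX11, an assembly factor of cytochrome c oxidase, by 0.51 ± 0.07, the nucleotidase gene CANT1 by 0.43 ± 0.08, and COASY, which makes coenzyme A, by 0.42 ± 0.08.

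The higher level was present on every knockout array. Taking each gene relative to its parental mean, the median over the 42 genes was 0.27, 0.30, 0.34, 0.30 and 0.32 on knockout arrays 1 to 5, against -0.02, 0.01, 0.03, 0.01 and -0.02 on parental arrays 1 to 5. Between 33 and 36 of the 42 genes were above the parental mean on each knockout array, against 15 to 27 on each parental array. Parental arrays lie near 0 by construction, since each gene's parental mean was subtracted. The genes were chosen by this contrast on these arrays, so the values are descriptions. No array carried the shift alone. The same median over all genes ran from -0.02 to 0.00 on the knockout arrays and from -0.01 to 0.01 on the parental arrays. In bulk RNA, a higher level in every cell and a larger share of cells with a high level cannot be told apart.

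**Figure D2:**
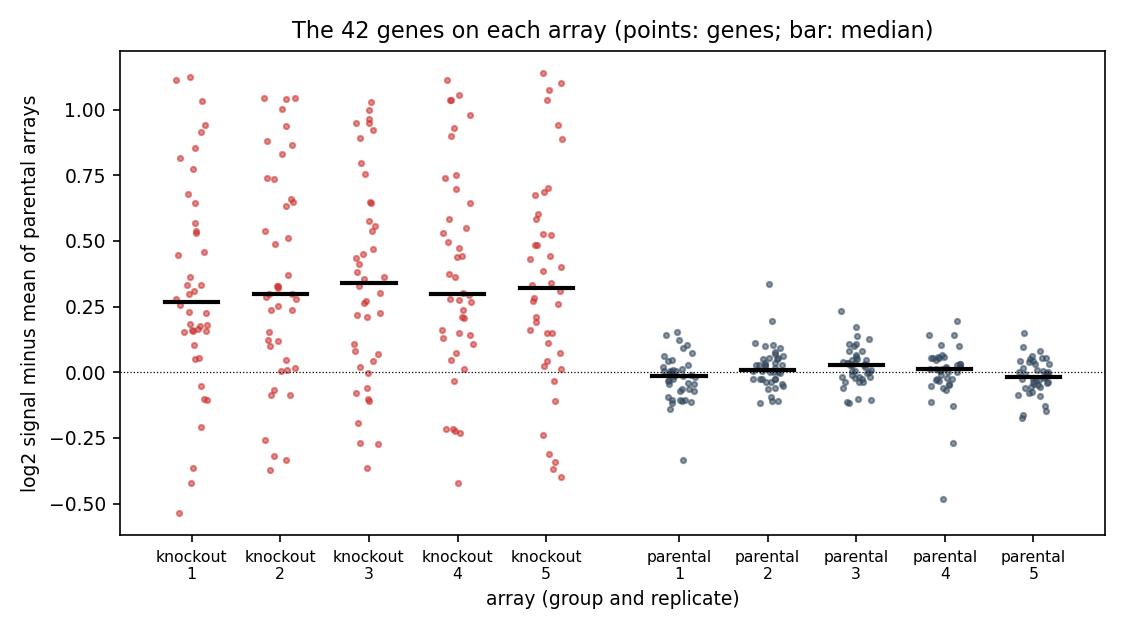
Log2 signal of each of the 42 genes minus its mean over the parental arrays (y axis) on the 10 arrays (x axis), with a point per gene and a black bar at the median of the genes. The bars of the 5 knockout arrays lie at 0.27 to 0.34 and those of the 5 parental arrays at -0.02 to 0.03.

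The shift changed little along the arm and was uneven from gene to gene. In order from MSL1 outward, the 10 genes to MLX had a median difference of 0.35, the next 10, to SP2, 0.30, the next 10, to MED13, 0.25, the next 10, to CANT1, 0.37, and the last 2, EIF4A3 and ARHGDIA, 0.39. A straight line through all 42 gained 0.03 for every 10 genes. Each group of 10 held both extremes: TNS4 and EIF1 in the first, NPEPPS and GOSR2 in the second, UTP18 and SNX11 in the third, HELZ and SOCS3 in the fourth.

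The 42 differences were unequal. Their standard deviation was 0.39, while the median standard error of a single difference was 0.06, from a spread between arrays that may be technical. Bright genes in general scattered more widely, at 0.47 on chromosome 17 before MSL1 and 0.48 over all bright genes. Whether an even rise was added to such scatter was not tested. The 95% interval of the difference held the common median of 0.31 in 14 genes, lay above it in 15 and below it in 13. For scale, a ratio of 3 to 2 is 0.58 on the log2 scale, and that value lay inside the interval of 7 genes, under that of 8 and over that of 27. Array signals tend to understate ratios, to an extent that was not measured for these genes. The number of gene copies was not measured here either, and a difference in copies was not tested.

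Genes next to each other on the list were no more alike than pairs of the 42 in general. They are mostly not neighbours on the chromosome, since 363 further genes other than keratins were measured along the stretch. The gap between the differences of consecutive genes of the list had a median of 0.55 over 41 pairs, against 0.39 over all 861 pairs. From SP2 over NFE2L1 and CBX1 to SNX11, 4 consecutive genes of the list ranged from -0.16 to 0.07 and none passed. They stood between KPNB1 (0.31) and UTP18 (0.97). The difference was only loosely tied to brightness, with Pearson's r of 0.17 between difference and mean level across the 42 genes, which share all arrays and are not independent replicates. The spread of the 42 was near that of bright genes in general. The interquartile range of the differences was somewhat wider, at 0.51 for the 42, 0.44 for the 220 genes of chromosome 17 before MSL1 whose means lay above 5.49, and 0.46 for all 7442 such genes. Their standard deviation was narrower, at 0.39 for the 42 and 0.48 for all bright genes. The range of the 42 lay higher, with quartiles at 0.07 and 0.58, against -0.27 and 0.19 for all bright genes.

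Other genes of the same stretch, which were not on the list, were higher too. The stretch was chosen by this contrast, so their values are descriptions as well. Between MSL1 and ARHGDIA 363 further genes other than keratins were measured, with a median difference of 0.13. Of these, 136 (37.5%) were called higher and 19 (5.23%) lower, where 15.3% and 19.0% of all genes were. Among the 208 of them with a mean above 5.49 the median was 0.28, with 118 (56.7%) called higher and 14 (6.73%) lower, where 24.1% and 31.5% of all genes with such means were. Among the 155 dimmer ones it was 0.06. Beyond ARHGDIA, toward the end of the chromosome, 32 genes had a median of 0.16, with 15 (46.9%) called higher and 3 (9.38%) lower. The 392 genes of chromosome 17 before MSL1, which include its short arm, had a median of 0.00. Of these, 66 (16.8%) were called higher and 77 (19.6%) lower, and those with a mean above 5.49 had a median of -0.04.

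Windows of 20 consecutive measured genes gave unlike medians on the 2 sides of MSL1. From MSL1 on, 23 of 24 windows had a median above 0, and 15 were at 0.1 or more. In the 19 windows before MSL1, 11 medians were above 0, 0 were at 0.1 or more, and the window that ended at MED24, next to MSL1, was at -0.07. The exception from MSL1 on, at -0.01, ran from KRTAP3-2 to KRTAP4-1 and held 0 genes with a mean above 5.49. The highest, at 0.31, ran from STAT5A to RPL27 and held 6 of the 42 genes. These windows were examined because of the same contrast and are a description of it.

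**Figure D3:**
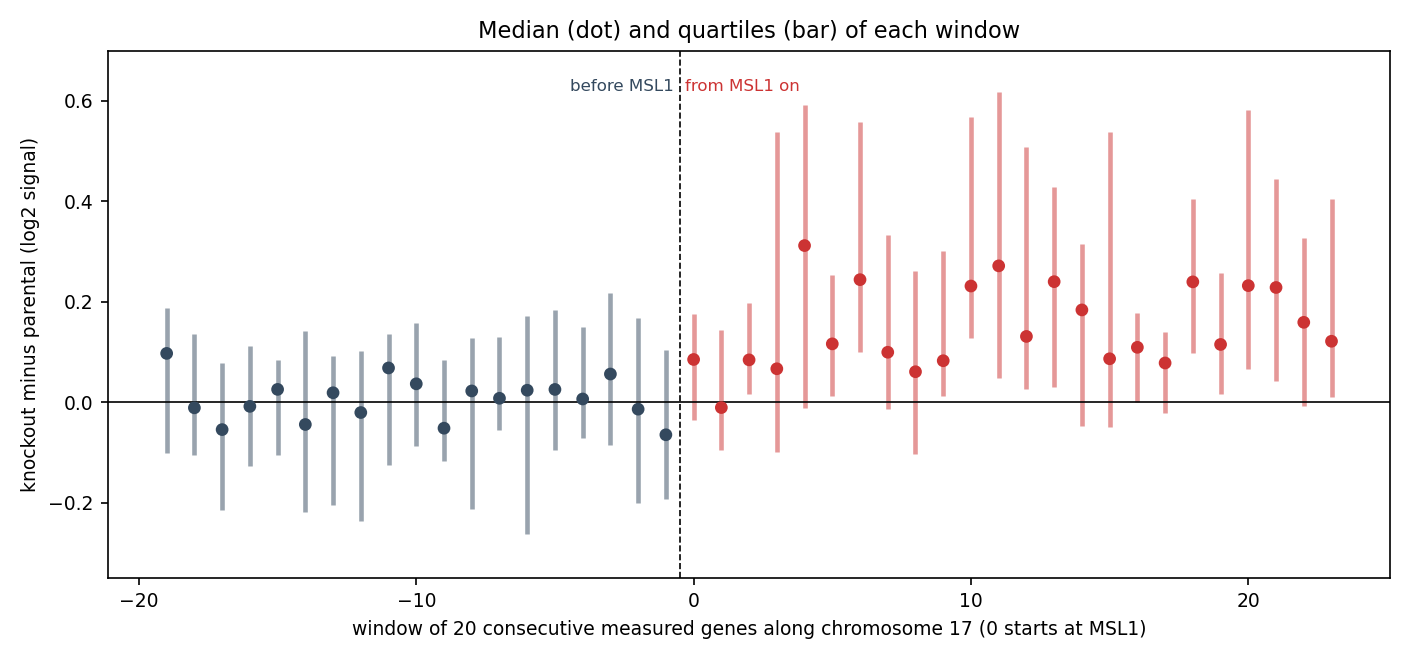
Median (dot) and quartiles (bar) of the knockout minus parental difference (log2 signal, y axis) in windows of 20 consecutive measured genes along chromosome 17 (x axis, window 0 starts at MSL1). Medians lie between -0.01 and 0.31 from MSL1 on and between -0.07 and 0.10 before MSL1.

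Among genes with a mean above 5.49, the medians of the other 22 chromosomes with enough measured genes ran from -0.14 (chromosome 5) to 0.11 (chromosome 20). On chromosome 20, 63.8% of them were above 0. The 208 bright genes of the stretch that were not on the list had a median of 0.28, with 78.85% above 0. For the 40 bright genes among the 42, the values were 0.32 and 85.0%. The stretch was chosen by this contrast and is a part of an arm, whereas the others are whole chromosomes. Parts of other chromosomes were not examined, so no rank is read from these values.

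Genes that work with the 42, nearly all encoded outside the stretch, were read from lists of partners, subunits, receptors and targets. Of 122 such genes measured outside the stretch, 23 were called higher and 41 lower (18.9% and 33.6%), where 15.3% and 19.0% of all genes were. Most partners were bright: of the 103 with a mean above 5.49, 20 were called higher and 37 lower (19.4% and 35.9%), where 24.1% and 31.5% of all such genes were. The shares of the bright partners were thus near those of bright genes in general. Over the 122, the median difference was -0.05, beside 0.31 for the 42 genes of 17q. The proteasome list was not analysed here.

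Partners of several complexes with a higher subunit on 17q were called in both directions. The counts here and in the lists below stand beside 24.1% called higher and 31.5% called lower among all bright genes. Whether a list departed from these shares was not tested. Of 13 exon junction and splicing partners, 2 were called higher, SRSF6 (0.40) and SRSF7 (0.37), and 4 lower, led by SNRNP40, of the U5 particle (-0.44). SRSF1, among the 13, itself lies on 17q beyond MSL1 and did not pass (-0.03). Of 11 partners of CDC27 in the anaphase promoting complex, 2 were higher, among them ANAPC5 (0.31), and 3 lower, among them CDC23 (-0.60) and CDC26 (-0.60). Of 14 nuclear import and pore genes, 4 were higher, among them IPO7 (0.60) and IPO5 (0.47), and 5 lower, among them KPNA4 (-0.37). Of 14 chromatin and transcription partners 1 was higher and 4 lower. The lower ones included KAT8, the acetyltransferase that MSL1 holds (-0.62), SUPT5H, the partner of the SUPT4H1 product (-0.39), and MED1 of Mediator (-0.80), which lies on chromosome 17 ahead of MSL1.

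Autophagy partners were mostly lower: 9 of 14 fell and 2 rose (median -0.26), with the cargo receptor gene SQSTM1 at -0.68, MAP1LC3B, whose product coats autophagosomes, at -0.98, and TMEM41B, which acts with VMP1, at -0.79. Only 4 of the 18 clathrin and membrane traffic partners were measured. Of these 1 was higher and 3 lower, the SNARE genes STX5 (-1.14), BET1 (-0.61) and SEC22B (-0.37), which pair with the GOSR2 product. BET1 was dim in both groups.

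Around STAT3, the kinase genes JAK1 (-0.70) and JAK2 (-0.73) fell, and GHR, a receptor that signals through STAT5, rose (0.78) at a low level. In all, 1 of 13 STAT signalling genes rose and 4 fell (median 0.02). Many of them were dim: 5 of the 13 had a knockout mean above 5.49, and 7 had a parental mean above it. Of 13 STAT3 target genes 5 rose and 4 fell (median -0.04). The rises included the cyclin gene CCND1 (1.25), BIRC5 (1.24), which encodes survivin and itself lies on 17q, and MYC (0.77). All 3 also belong to growth and cell cycle programmes. Whether STAT3 had a part in these rises, or in the falls of other targets, was not tested.

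Of 9 mTORC1 and S6 kinase partners 3 rose and 3 fell, among them the translation inhibitor genes PDCD4 (1.02) and EIF4EBP1 (-1.59), and MTOR (-0.53). Of 6 SUMO, PKA and adaptor genes 2 rose, among them SHC1 (0.33), and 1 fell, SOS2 (-0.76). The other rise, SAE1 (0.24), of the SUMO activating enzyme, lost its call without parental replicate 1, 3 or 5 or knockout replicate 2, 3 or 4 (limma, adjusted p of 0.0598 to 0.0707). In the SOX9 list (5 measured) and the retinoic acid list (3 measured) 0 genes passed. Means above 5.49 were seen in 3 genes of the SOX9 list and 0 of the retinoic acid list, in either group.

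**Figure D4:**
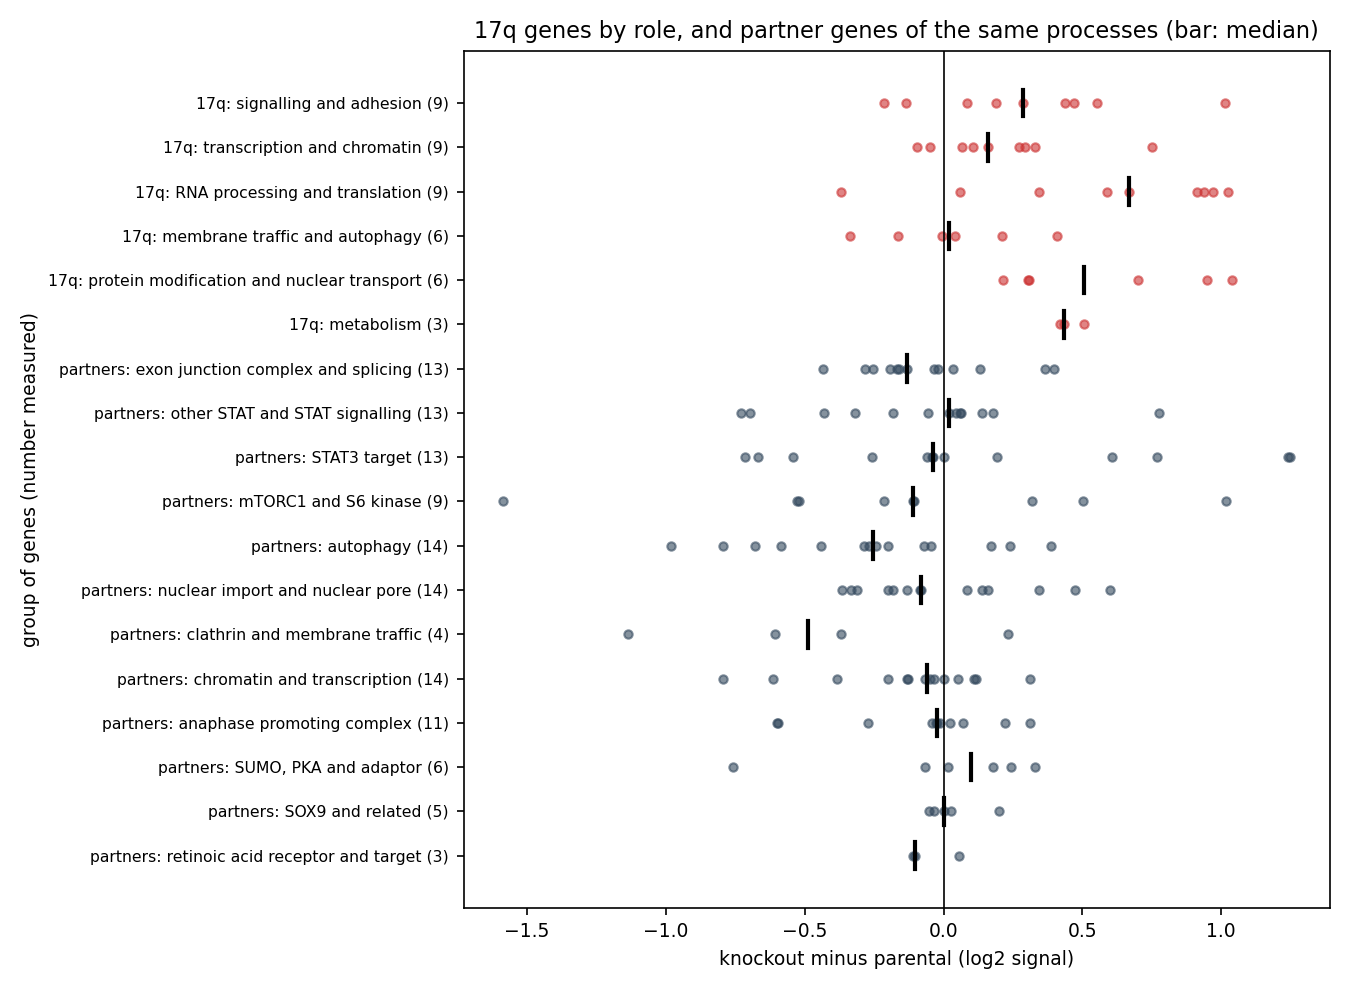
Knockout minus parental difference (log2 signal, x axis) of the 42 genes of 17q by role (red, upper rows) and of partner genes by list (dark, lower rows), with a point per gene and a black bar at the median. Medians of the 17q roles run from 0.02 to 0.67 and those of the partner lists from -0.49 to 0.10.

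The label of the cells was read against markers. Of the basal epithelial list 3 of 10 genes were measured, and KRT5 (10.34 in knockout and 9.57 in parental cells), EGFR (11.10 and 10.41) and SFN (10.64 and 10.25) were bright in both groups. Of the 6 luminal genes, all measured, KRT18 (9.72 in knockout and 10.65 in parental cells) was bright, and GATA3 (6.80 and 7.24) and KRT8 (6.05 and 6.40) were above the middle of all genes in both groups. KRT18, GATA3 and FOXA1 (4.97 and 5.26) were called lower, and 0 were called higher. Whether the probe set of KRT18 tells that gene from close copies elsewhere was not tested. The hormone receptor genes ESR1 and PGR were under 4.1 in both groups, as were the endothelial genes PECAM1 and VWF, the fibroblast gene LUM was under 3.2 in both, and DCN was at 6.11 in knockout and 4.06 in parental cells. Of the immune markers CD14 was at 4.11 in knockout and 4.87 in parental cells and CD68 at 7.88 and 8.24. The gene of H2A.X was not analysed here, so the knockout rests on the labels.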

How the data were processed

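RNA of 5 knockout and 5 parental samples of MCF10A was measured on Affymetrix arrays, 1 per sample. The table deposited by the authors holds a log2 signal for each probe set and array, already normalised. The submitters' processing notes name Affymetrix Expression Console and Partek 6.6. How they were used, and with which normalisation and filters, is not given in the sources used here. That the scale is log2 was inferred from the range of values (1.13 to 13.87) and of array medians (4.26 to 4.35).

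Of 53617 probe sets, 16098 had 1 gene in the platform annotation, all matched by Entrez identifier to the RefSeq table of GRCh38.p14, 0 had several and 37519 are unnamed here. Each of 14884 genes was represented by its probe set of highest mean. Gene order came from the same table and is used for neighbours only, since the files name no build. Differences were fitted with limma 3.58.1 (lmFit and eBayes) in R 4.3.3 on all 10 arrays, with no covariate or filter and Benjamini-Hochberg adjustment over all genes at 0.05. Python 3.11.15, pandas 2.3.3, numpy 2.4.6 and matplotlib 3.10.9 made the summaries and plots. The fit was also run on simulated data with few changed genes and independent errors. In the real data 5108 genes were called, so nothing is read from the simulation.

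The genes, lists and roles were chosen with earlier results of these data known. All measured genes of the 17q list are named. Values on every array are given for the highest and lowest of each 10 along the arm and for STAT3, STAT5A, STAT5B, SOCS3, SOX9, SRSF2 and RPL27, and those on SUMO2 were added after its values were seen. Of each partner list, up to 3 genes with the largest differences among those past the test are named, and SRSF1 is named for its place on 17q. The genes of 1 partner list count in the total but are not reported here. Alternatives were quantile normalisation, centring of arrays, a filter on dim genes, the mean over probe sets, an intensity trend, a replicate block, and leaving out each array. For arrays, their number limits the precision. The values show no shift of all transcripts together, since arrays were normalised before deposit.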

Additional observations from a re-analysis of the deposited data

Results flagged for a closer look

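Among the 42 genes of 17q and the named partner genes, 148 groups of 5 arrays were examined for an array far from the other 4 of its group, and 7 were found, where chance gives about 1 in 20 groups. In knockout cells, UTP18 was at 7.91 on array 4 and 7.71 to 7.75 on the others, MED13 at 9.37 on array 5 and 9.10 to 9.14 on the others, and GRB2 at 8.09 on array 4 and 7.93 to 7.95 on the others. SOCS3 was at 5.50 on knockout array 1 and 5.02 to 5.09 on the others, and its call depends on that array. TLK2 was low on knockout array 3, at 8.58 against 8.70 to 8.74, and NUP85 on knockout array 1, at 6.79 against 6.92 to 6.98. In parental cells KAT8 was at 7.25 on array 1 and 7.33 to 7.36 on the others.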

How the results depend on the processing

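The median difference of the 42 genes was 0.31, and 0.33 under quantile normalisation, within the 0.30 to 0.33 seen with an array left out, of which the highest was without knockout replicate 1. The number called higher was 27, or 26 to 28 under the alternatives run: the mean over probe sets lost CDC27 (0.14), and NKIRAS2 was added by quantile normalisation, centring, the filter on dim genes, the intensity trend and 2 of the 10 settings that leave out an array. With an array left out it was 27 to 28. The interquartile range of their differences was 0.47 to 0.54 with an array left out, and the median of the other non-keratin genes of the stretch 0.13 to 0.14, or 0.15 without the dimmest 25% of genes, a setting that tests fewer genes. Over all genes 4705 to 5128 were called with an array left out. With the replicate number as a block, 4972 of all genes and 27 of the 42 were called. The labels do not say that numbers pair the samples, and same-numbered arrays deviated together at correlations of -0.01 to 0.20, of which 1 of 5 was above 0.1. Genes under the median signal have compressed differences, which limits STAT5A and SOCS3.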
